A study of Mus musculus with 3 samples.

Results

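Glycolysis was followed through 10 genes in lung endothelial cells (ECs): Pfkfb3, which regulates the flux, the glucose transporter gene Slc2a1, and the enzyme genes Hk1, Hk2, Pfkl, Aldoa, Pgk1, Eno1, Pkm and Ldha. They were taken by symbol from the 32285 genes of the count matrices, where Aldoa has 2 gene IDs, so the 10 genes have 11 IDs. The data are 3 single-cell libraries of wild-type C57BL/6 mouse lung, 1 library per group, each made from mice whose cells were pooled (the labels say 2 mice per treatment, while 3 are named in the methods). Adult males were used per the methods. Control mice received 100 µl of buffer (PBS) through the tail vein and were taken after 6 h. The other mice received 200000 B16-F10 melanoma cells in the same volume and were taken after 6 h or after 30 h. B16-F10 cells come from a mouse skin tumor of pigment cells and lodge in lung capillaries once injected, and the libraries were made to follow how lung ECs respond to them. All lungs were digested warm with collagenase, and Pecam1+ Ptprc- cells were sorted. The label of the 6 h library adds that dye-tracked melanoma cells went in with its ECs. Buffer-treated mice at 30 h were not analysed here, the control for both times being the 6 h one, and time after injection and tumor cells cannot be told apart in that comparison. With 1 library per group no difference has a replicate check, no test between groups is possible, and all intervals are 95% intervals for counting error only.

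Glycolysis splits glucose into pyruvate in the cytosol and yields ATP without oxygen. ECs are known to rely on it strongly although they face the blood, and to raise it when they sprout or become activated. Its pace is set in large part by phosphofructokinase, and PFKFB3 makes fructose-2,6-bisphosphate, the strongest activator of that enzyme. Pfkfb3 is also on the study's marker list of a reactive capillary cluster, chosen on cells that included these libraries, so its levels here are no independent evidence of that pattern.

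UMIs, the tagged copies that each stand for 1 captured RNA molecule, were summed over endothelial barcodes. These were barcodes with 1000 to 5000 detected genes, under 20% mitochondrial UMIs and at least 2 UMIs of the EC genes Pecam1 and Cdh5 together. The rule kept 11231 barcodes in the control, 10583 at 6 h and 9278 at 30 h, 31092 in all, with 90853430, 87340328 and 81485079 UMIs and median depths of 7782, 8033 and 8675.5 UMIs. Pecam1 and Cdh5 together made 2719 to 3025 of every 1000000 UMIs (CPM) in these sums, and Ptprc, the leukocyte gene sorted against, 3.16 to 6.53 CPM. The 8 leukocyte markers, Ptprc among them, summed to more, 89.1, 121 and 74.3 CPM in control, 6 h and 30 h. The 6 h library was thus the highest, and most of the sum was Lyz2 (75.1, 86.8 and 42.6 CPM). Between 59 and 75 endothelial barcode sequences per library also passed in another library. RNA outside cells was read from 60106 to 61106 empty droplets per library, those of 50 to 200 UMIs. These droplets held EC RNA as well, with Pecam1 and Cdh5 together at 1952, 1786 and 2089 CPM in control, 6 h and 30 h. The endothelial sums stood at only 140%, 152% and 145% of that level. An endothelial level near or below that of empty droplets is thus no sign that ECs lack the gene. The lung epithelial genes Scgb1a1 and Sftpc, which ECs should lack, were pooled to set the upper limit used here on the share of such RNA among endothelial UMIs. It was 3.96% (control), 7.11% (6 h) and 6.19% (30 h). Single genes give other shares. In the control Scgb1a1 stood at 315 CPM against 13774 CPM in empty droplets, and Sftpc at 423 against 4836 CPM. Red cell genes stood at 4.72%, 4.79% and 7.98% of their empty-droplet level in the control, 6 h and 30 h libraries. The upper limit named below is thus the pooled one and no firm bound. Levels are given as CPM of endothelial sums. They come from 3′ ends and are not set per length, so levels of different genes were not compared with each other.

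Pfkfb3 (ENSMUSG00000026773, chr2:11471433-11554077, minus strand, build GRCm38) stood at 42.6 CPM in the control (3868 UMIs, interval 41.2 to 43.9), 51.9 CPM at 6 h (4537 UMIs, 50.4 to 53.5) and 39.2 CPM at 30 h (3194 UMIs, 37.8 to 40.6). The 6 h library was the highest and the 30 h library the lowest, and the 3 intervals did not overlap. The log2 ratio was 0.29 at 6 h against control (0.22 to 0.35), a 1.22-fold difference, -0.12 at 30 h against control (-0.19 to -0.05) and -0.41 at 30 h against 6 h (-0.47 to -0.34). In empty droplets Pfkfb3 stood at 29.4, 41.5 and 35.3 CPM in the same order of libraries, below the endothelial level in control and 6 h, while at 30 h the intervals overlapped (30.8 to 40.2 CPM in empty droplets).

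Slc2a1 encodes GLUT1, the main glucose carrier of ECs. Its level was 11.0 CPM in the control (996 UMIs), 11.5 CPM at 6 h (1008 UMIs) and 6.15 CPM at 30 h (501 UMIs). Control and 6 h did not differ beyond their intervals (10.3 to 11.7 and 10.8 to 12.3), while 30 h was 0.561 times the control (log2 ratio -0.83, -0.99 to -0.68) and 0.533 times the 6 h level (log2 ratio -0.91, -1.07 to -0.75). Empty droplets held 8.24 CPM (6.33 to 10.5), 10.5 CPM (8.37 to 13.1) and 7.91 CPM (5.87 to 10.4), and their interval overlapped the endothelial one in all 3 libraries (5.62 to 6.71 CPM at 30 h).

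The hexokinases trap glucose in the cell by phosphorylating it. Hk1, the housekeeping form, was at 53.1 CPM in the control, 61.4 CPM at 6 h and 56.3 CPM at 30 h, above the empty droplets (31.9 to 41.0 CPM) in all 3 libraries. Against control, Hk1 had log2 ratios of 0.21 at the early (0.15 to 0.26) and 0.08 at the late time (0.03 to 0.14). Hk2, the inducible form, was close to the limit of detection, with 35, 66 and 28 UMIs in all endothelial barcodes of the control, 6 h and 30 h libraries, or 0.39, 0.76 and 0.34 CPM. Empty droplets held 1.70, 3.38 and 2.53 CPM, of which free RNA at its upper limit could bring 0.067, 0.24 and 0.16 CPM to the endothelial sums. The log2 ratio of Hk2 was 0.97 at 6 h against control (0.36 to 1.61), and with a mean under 5 CPM it was not called.

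Pfkl encodes the liver-type subunit of phosphofructokinase, the enzyme that the product of PFKFB3 activates. It differed little, with 27.0 CPM in the control, 28.8 CPM at 6 h and 28.7 CPM at 30 h, and its log2 ratios against control were 0.09 at both times (0.01 to 0.17 and 0.00 to 0.17). Aldoa, the aldolase that cuts the 6-carbon sugar, had the most UMIs of the 10 genes, 27871, 30057 and 20332. That made 307, 344 and 249.5 CPM in control, 6 h and 30 h, and the second gene ID gave only 6, 6 and 5 of these UMIs. Against control, Aldoa thus had a log2 ratio of 0.17 at 6 h (0.14 to 0.19) and of -0.30 at 30 h (-0.32 to -0.27), and the 30 h level was lower than at 6 h, with a log2 ratio of -0.46 (-0.49 to -0.44). Genes on the opposite strand overlap Aldoa (Fam57b), Pfkfb3 (Gm10851), Slc2a1 (Gm12867 and Gm12868), Hk1 (Hk1os) and Hk2 (Gm17034). Whether the counting used strand is not given in the sources used here, so reads of these pairs may be mixed. Its level in empty droplets was higher than in endothelial barcodes in all 3 libraries (442, 577 and 319.6 CPM).

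The later steps of the pathway yields ATP and pyruvate. Pgk1, the first ATP-forming enzyme, was at 46.5 CPM in the control, 55.1 CPM at 6 h and 52.2 CPM at 30 h. Eno1, the enolase, was at 19.3 CPM (1757 UMIs), 26.8 CPM (2338 UMIs) and 32.3 CPM (2628 UMIs). Eno1 was the one member with its highest level at 30 h. Against control it was 1.38-fold higher at 6 h (log2 ratio 0.47, 0.38 to 0.56) and 1.67-fold higher at 30 h (0.74, 0.65 to 0.83), and between both times the ratio was 0.27 (0.19 to 0.35). Reads of Eno1 can be shared with its near-identical copy Eno1b, which was listed at 1.03 to 1.29 CPM, so the split between both is uncertain. Pkm, the pyruvate kinase, was at 133, 150 and 127 CPM, so that the 6 h library was the highest (log2 ratio 0.17 to control, 0.13 to 0.20) and the 30 h library the lowest (-0.07, -0.11 to -0.04).

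Ldha, the lactate dehydrogenase subunit that turns pyruvate into lactate, was at 98.2 CPM in the control (8922 UMIs), 134 CPM at 6 h (11735 UMIs) and 121 CPM at 30 h (9861 UMIs). Both tumor-cell libraries were above the control. At 6 h Ldha was 1.37-fold higher (log2 ratio 0.45, 0.41 to 0.49) and at 30 h 1.23-fold (0.30, 0.26 to 0.34). Empty droplets of the control, 6 h and 30 h libraries held 102, 175 and 118 CPM of Ldha and 149, 239 and 129 CPM of Pkm.

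**Figure D1:**
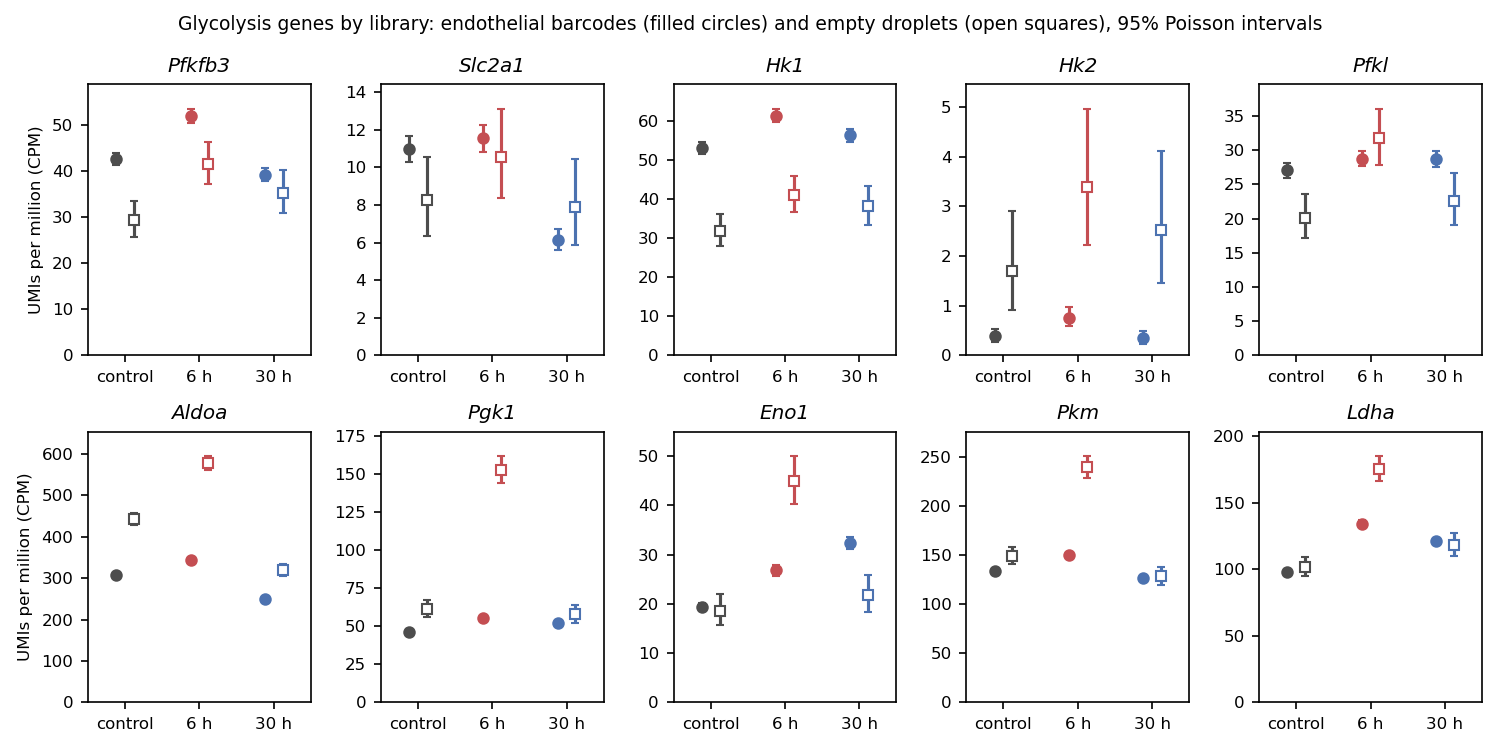
Level of each gene (CPM, linear axes from 0) in the control, 6 h and 30 h libraries, with filled circles for endothelial barcodes, open squares for empty droplets and bars for 95% Poisson intervals. Hk1 and Pfkfb3 lie above the empty droplets in all 3 libraries, with overlapping intervals for Pfkfb3 at 30 h. Hk2, Aldoa, Pgk1 and Pkm lie below them in all 3 libraries, with overlapping intervals for Pgk1 and Pkm at 30 h. Ldha and Eno1 lie below them at 6 h beyond their intervals, and the open squares of Pgk1 and Eno1 stand out there (152 and 44.9 CPM).

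A gene was called past the fold where its CPM differed by 0.32 or more on the log2 scale, among the 10175 genes whose mean over the libraries reached 5 CPM. Of the 10 members 9 passed that filter, all but Hk2. At 6 h against control 2 members were higher past the fold, Eno1 and Ldha, and 0 were lower, where 7.12% of all genes tested were higher and 6.74% lower. All 9 had a log2 ratio above 0, from 0.07 for Slc2a1 to 0.47 for Eno1, with a median of 0.21 over these 9 against -0.01 over all genes tested (0.23 with Hk2). At 30 h against control 1 member was higher, Eno1, and 1 lower, Slc2a1, where 13.0% of all genes were higher and 20.4% lower, and the median of the 9 members was 0.08 against -0.07 over all genes tested (0.01 with Hk2). At 30 h against 6 h 3 members were lower, Pfkfb3, Slc2a1 and Aldoa, and 0 higher, where 17.8% of all genes were lower and 13.6% higher, with medians of -0.15 over the 9 members and -0.07 over all genes tested (-0.20 with Hk2). Each pair of these comparisons shares a library, so they are not independent of each other.

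**Figure D2:**
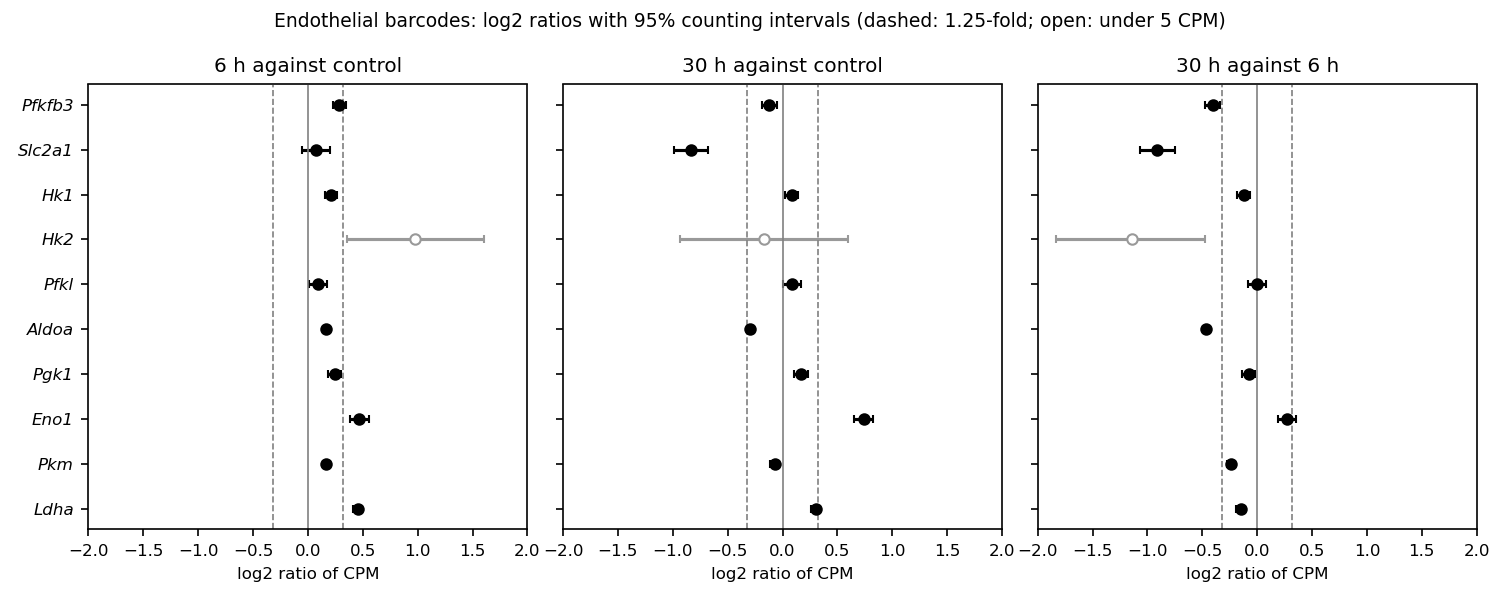
Log2 ratio of CPM in endothelial barcodes (x axis) for each of the 10 genes (y axis) in the 3 comparisons, with bars for 95% counting intervals, dashed lines at the fold used for calls (0.32 on the log2 scale) and an open symbol for Hk2, which was under 5 CPM. All circles lie right of 0 at 6 h against control, while at 30 h against 6 h Slc2a1 (-0.91), Aldoa (-0.46) and Pfkfb3 (-0.41) lie left of the dashed line.

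RNA outside the cells differed as well. In empty droplets Pgk1 was 2.48-fold and Eno1 2.42-fold higher at 6 h than in the control, Ldha 1.72-fold and Pfkfb3 1.41-fold (log2 ratio 0.50, 0.25 to 0.75). The 6 h library held 45 barcodes with at least 4 of 8 melanoma markers, and the others 0. In the 31 of them with under 2 UMIs of Pecam1 and Cdh5 (227141 UMIs), Pgk1 reached 1536 CPM, 27.9 times its endothelial level, and Eno1 691 CPM, 25.8 times. Aldoa (1704 CPM), Pkm (1444 CPM) and Ldha (1162 CPM) were also higher there than in ECs, while Pfkfb3 had 2 UMIs (8.81 CPM, 1.07 to 31.8). The 8 melanoma markers summed to 23.5, 40.5 and 20.7 CPM in endothelial barcodes and to 13.0, 579 and 16.9 CPM in empty droplets of the control, 6 h and 30 h libraries, with Tyrp1 at 0 in both places in the control and at 30 h. By 4 of these markers, melanoma RNA made 0.0915% of endothelial UMIs at 6 h. With that share subtracted, the log2 ratio at 6 h was 0.44 for Eno1, 0.44 for Ldha, 0.21 for Pgk1 and 0.29 for Pfkfb3. With all free RNA subtracted at its upper limit it was 0.39 for Eno1, 0.42 for Ldha and 0.29 for Pfkfb3, while Pgk1 came down from 0.24 to 0.05, and at 30 h against 6 h Pgk1 changed from -0.08 to 0.12.

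The 250 bases upstream of the start were read for the genes from RefSeq windows of GRCm38.p6, which matched all 10. They were searched on both strands for ACGTG and GCGTG, the core of the hypoxia response element at which HIF factors bind, and ACGTG also lies inside the E-box CACGTG that MYC and USF factors bind. Of 32851 windows of that length, 16.6% held ACGTG, 28.2% GCGTG and 38.6% either. The 10 members have 18 such windows, of which 9 held ACGTG, 8 GCGTG and 15 either. For each gene the window closest to the start of its principal GENCODE transcript was then used, and of these 10 windows 6 held ACGTG and 8 either motif. The start of the window lay 244 bases from the principal start for Eno1 and 208 for Pkm, and at most 35 for the other genes. The 5 genes past the fold in some comparison are shown, 5′ to 3′ on the gene's strand, up to the first annotated exon and with complete matches in capitals. Pfkfb3 is at chr2:11502102-11502340 (minus strand), Slc2a1 at chr4:119108495-119108710 (plus), Aldoa at chr7:126799255-126799504 (minus), Eno1 at chr4:150236458-150236707 (plus) and Ldha at chr7:46845554-46845803 (plus).
Pfkfb3: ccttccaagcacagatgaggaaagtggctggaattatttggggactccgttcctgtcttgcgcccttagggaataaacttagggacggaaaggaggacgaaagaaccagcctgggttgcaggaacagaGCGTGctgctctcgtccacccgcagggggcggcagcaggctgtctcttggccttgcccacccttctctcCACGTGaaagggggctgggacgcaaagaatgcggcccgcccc
Slc2a1: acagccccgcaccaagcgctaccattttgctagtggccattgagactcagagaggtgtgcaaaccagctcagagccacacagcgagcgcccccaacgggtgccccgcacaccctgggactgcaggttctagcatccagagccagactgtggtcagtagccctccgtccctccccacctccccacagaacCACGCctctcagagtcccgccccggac
Aldoa: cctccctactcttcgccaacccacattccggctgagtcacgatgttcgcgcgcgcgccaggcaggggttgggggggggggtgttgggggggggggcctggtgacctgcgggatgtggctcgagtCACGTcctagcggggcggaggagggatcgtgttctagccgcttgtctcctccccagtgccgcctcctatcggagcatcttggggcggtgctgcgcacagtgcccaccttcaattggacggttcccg
Eno1: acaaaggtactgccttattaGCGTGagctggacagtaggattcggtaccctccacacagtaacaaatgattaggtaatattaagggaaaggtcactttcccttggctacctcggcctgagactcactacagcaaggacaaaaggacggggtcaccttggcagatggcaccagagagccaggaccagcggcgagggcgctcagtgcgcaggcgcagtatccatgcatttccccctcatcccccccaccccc
Ldha: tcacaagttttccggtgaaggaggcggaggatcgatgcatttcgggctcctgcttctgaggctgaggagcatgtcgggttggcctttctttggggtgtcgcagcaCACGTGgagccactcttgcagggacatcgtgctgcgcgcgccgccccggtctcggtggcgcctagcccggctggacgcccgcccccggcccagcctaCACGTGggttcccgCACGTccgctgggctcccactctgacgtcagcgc
Pfkfb3 and Ldha have the palindrome CACGTG, which matches on both strands, and Ldha has the most matches, 5. Slc2a1 has a GCGTG in the printed stretch and an ACGTG after it that runs into the first annotated exon, so that it is printed in part and without capitals, and Eno1 has 1 GCGTG. A match is only a run of letters, and binding was not measured here.

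Levels were then read by endothelial class. Barcodes were classed by markers that are no members: general capillary (gCap, for example Gpihbp1 and Plvap), aerocyte (aCap, the large capillary cells of gas exchange, Car4 and Ednrb), artery (Gja5 and Bmx), vein (Vwf and Slc6a2) and lymphatic (LEC, Prox1 and Mmrn1). In the control, 6 h and 30 h libraries there were 7796, 7792 and 5847 gCap-like barcodes, 1381, 1149 and 1394 aCap-like, 165, 117 and 298 artery-like, 645, 468 and 484 vein-like, and 74, 57 and 57 LEC-like, and 1000 to 1198 stayed unclassed. The marker sum of a class was highest in that class in every library, which follows from gating on those same markers and is no check of the classes. In artery-like barcodes the gCap markers still summed to more than the artery markers (7703 against 4350 CPM in the control). The LEC-like barcodes of the control carried the most epithelial RNA, 2578 CPM against 89.2 to 908 CPM in the other class sums. The artery-like barcodes of the control carried the most fibroblast or pericyte RNA, 345 CPM against 14.9 to 89.0 CPM in the other class sums. Each class of a library is 1 value, and the order of classes is given as a count over the 3 libraries.

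Pfkfb3 was lower in vein-like and LEC-like than in gCap-like barcodes in 3 of 3 libraries. The vein-like level was 29.7, 28.3 and 25.7 CPM in control, 6 h and 30 h, against 44.8, 54.9 and 39.9 CPM in gCap-like barcodes. The log2 ratio of vein-like to gCap-like was -0.60, -0.96 and -0.63, and every interval lay below 0. Artery-like barcodes (48.5, 53.9 and 43.6 CPM) did not differ from gCap-like ones beyond their intervals in any library, and aCap-like ones (38.0, 47.7 and 40.4 CPM) were lower in control and 6 h and not distinguishable at 30 h (log2 ratio 0.02, -0.11 to 0.15). Under a stricter class gate the vein-like ratio stayed below 0, at -1.47, -0.50 and -0.56. Its size depended on the gate, as the control and 6 h values lay outside their intervals under the first gate (-0.82 to -0.38 and -1.22 to -0.71).

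Slc2a1 was lower in aCap-like than in gCap-like barcodes in 3 of 3 libraries. Its aCap-like level was 3.53, 3.94 and 1.74 CPM, against 12.0, 12.9 and 7.03 CPM in gCap-like barcodes, with log2 ratios of -1.77, -1.71 and -2.02. Free RNA at its upper limit could bring 0.33, 0.75 and 0.49 CPM of Slc2a1 to an endothelial sum, less than each aCap-like level. Pfkl was also lower in aCap-like barcodes in 3 of 3 libraries, with 15.4, 18.2 and 17.4 CPM against 28.8, 30.5 and 29.7 CPM in gCap-like ones. LEC-like barcodes, with 1 to 4 UMIs of Slc2a1 and 6 to 11 of Pfkl per library, were also below gCap-like ones in both genes in 3 of 3 libraries, beyond the interval in 1 library each. Artery-like barcodes had more Pfkl than gCap-like ones, beyond the interval in 3 of 3 libraries, with 40.1, 44.4 and 37.0 CPM. Vein-like barcodes also had more Pfkl in 3 of 3 libraries (log2 ratios 0.19 to 0.38), beyond the interval in 2.

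At the other end of the pathway the classes took another order. Ldha was highest in vein-like barcodes in 3 of 3 libraries, with 184, 250.2 and 171 CPM in control, 6 h and 30 h, against 94.5, 132 and 120.4 CPM in gCap-like ones (log2 ratios 0.96, 0.92 and 0.51). The vein-like class was thus above gCap in Ldha and below it in Pfkfb3. Pkm was highest in LEC-like barcodes (186, 237 and 239 CPM) and next in aCap-like ones (176, 195 and 173 CPM), against 123, 139.6 and 112 CPM in gCap-like barcodes. The LEC-like and aCap-like intervals of Pkm overlapped in control and at 6 h. Aldoa was higher in aCap-like than gCap-like barcodes in 3 of 3 libraries, with log2 ratios of 0.26 to 0.36. It was also higher in artery-like barcodes in 3 of 3 libraries (0.13 to 0.44), beyond the interval in 2. Hk1 and Pgk1 had no class whose interval lay on the same side of gCap in all 3 libraries. For Eno1 the artery-like level was above the gCap-like one in 3 of 3 libraries, beyond its interval in 1. The LEC-like level of Eno1 was also above the gCap-like one in 3 of 3 (log2 ratios 0.03 to 0.71), every interval including 0.

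**Figure D3:**
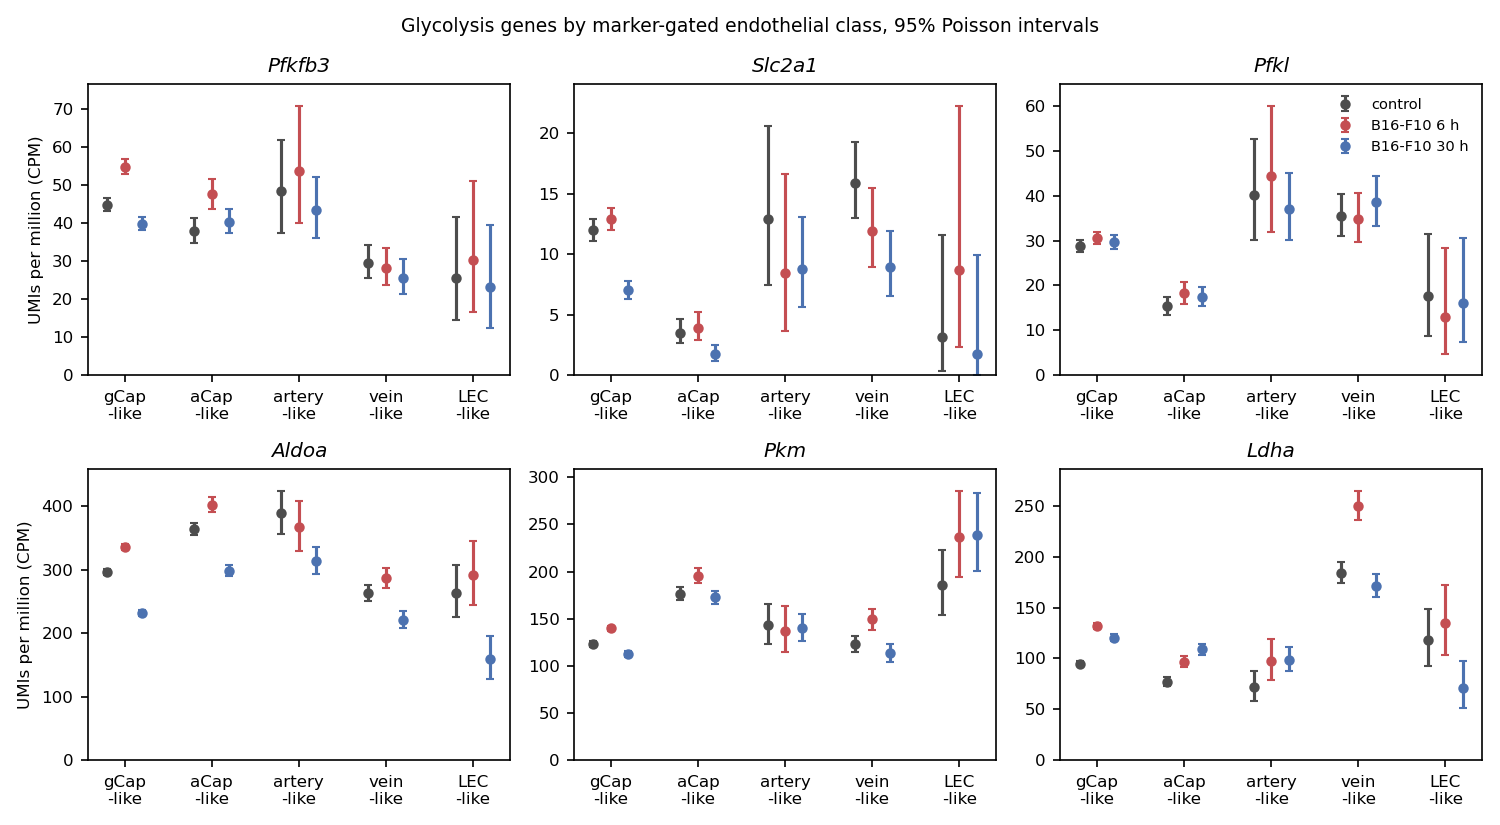
Level (CPM, linear axes from 0) of 6 glycolysis genes in 5 marker-gated endothelial classes (x axis) of the control, 6 h and 30 h libraries, with bars for 95% Poisson intervals. Pfkfb3 is low in vein-like and LEC-like barcodes, Slc2a1 and Pfkl are low in aCap-like ones and, with wide bars, in LEC-like ones, and Ldha peaks in the vein-like class of every library (171 to 250.2 CPM).

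Within classes, Pfkfb3 was higher at 6 h than in the control in gCap-like (log2 ratio 0.29, 0.22 to 0.37) and aCap-like barcodes (0.33, 0.16 to 0.50), while the vein-like ratio was -0.07 (-0.40 to 0.26). Whether those ratios differ between classes was not tested. Eno1 was higher than in the control in all 5 classes at both times, from 0.44 to 1.06 at 6 h and from 0.63 to 0.87 at 30 h, although both LEC-like intervals and the artery-like one at 6 h reached below 0. Slc2a1 at 30 h was lower in gCap-like (-0.77), aCap-like (-1.02) and vein-like barcodes (-0.83), each with its interval below 0. In gCap-like barcodes alone, 4 members were past the fold at 30 h against control, Eno1 and Ldha higher and Slc2a1 and Aldoa lower (background 13.0% and 20.5% of 10043 genes).

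At 2000 UMIs per barcode, 7.88% of control (7.39% to 8.40%), 8.70% of 6 h (8.17% to 9.26%) and 7.07% of 30 h endothelial barcodes (6.55% to 7.61%) had a Pfkfb3 UMI. The control interval overlapped both others. For Slc2a1 the shares were 2.17%, 2.17% (1.90% to 2.46%) and 1.1% (0.898% to 1.34%), with 30 h below the others. Between 111 and 197 shallower barcodes per library were left out, and without thinning the shares were 24.8%, 26.0% and 24.3% for Pfkfb3. No class is known to lack Pfkfb3, so a share in cells without the gene cannot be given. At its upper limit free RNA could bring 1.17, 2.95 and 2.18 CPM of the Pfkfb3 level in control, 6 h and 30 h. Among gCap-like barcodes with a UMI of each of Pim3, Bcl3 and Tmem252, which are reactive capillary markers, Pfkfb3 stood at 50.5, 91.2 and 45.6 CPM in control, 6 h and 30 h (272, 855 and 240 barcodes), against 44.6, 48.9 and 39.5 CPM in the other gCap-like barcodes. The log2 ratio was 0.90 at 6 h (0.78 to 1.01) and 0.18 (-0.08 to 0.42) and 0.21 (-0.08 to 0.48) in the other libraries. These barcodes were deeper in every library, with median depths of 9614.5 against 7268 UMIs in the control, 9600 against 7499 at 6 h and 10121 against 8140 at 30 h. Ldha was higher in these barcodes in all 3 libraries (0.38, 0.48 and 0.46), each interval above 0. Aldoa was lower in them in all 3 libraries (-0.18, -0.07 and -0.24), each interval below 0. Pkm had ratios of -0.20 (-0.37 to -0.03), 0.05 and 0.09, and Hk1 of -0.14, -0.18 (-0.33 to -0.04) and -0.06. The ratios of Slc2a1, Pfkl, Pgk1 and Eno1 lay between -0.29 and 0.54, every interval including 0. Pim3, Bcl3 and Tmem252 were chosen by the study on cells that included these libraries, so these ratios are no independent evidence.

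The members did not vary as 1 block over classes and libraries. Over 15 sums (5 classes in 3 libraries, sharing libraries and depth), Pearson r of log2(CPM + 1) with Pfkfb3 was 0.77 for Aldoa and between -0.37 and 0.33 for the other members. The genes most like Pfkfb3 by that measure, among 10568, were Ccdc47 (0.94), Sipa1l2, Ddx23 and Pitpnm1 (each 0.92) and Hipk2 (0.91).

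Of 27 other glycolysis genes 10 passed the filter. At 6 h against control 0 were higher past the fold and 1 lower, Pfkm, the muscle-type phosphofructokinase (6.85 CPM in the control, 5.11 CPM at 6 h, log2 ratio -0.42), where 7.12% of all genes were higher and 6.74% lower, with a median of 0.10 and the highest ratio, 0.27, for Tigar. At 30 h against control Pfkm (0.35) and Tpi1, the triose phosphate isomerase (0.33), were higher, and Gpi1, the glucose phosphate isomerase (-0.39), and Pfkfb2 (-0.35) lower, 2 of 10 each way where 13.0% of all genes were higher and 20.4% lower, with a median of 0.03. Gapdh was at 212, 255 and 252 CPM, with log2 ratios of 0.27 and 0.25 against control. Empty droplets held 298, 589 and 269 CPM of Gapdh in the same order of libraries. The 31 melanoma-like barcodes with few EC UMIs at 6 h held 4561 CPM, 17.9 times the endothelial level. The part of such RNA in the Gapdh ratios was not tested. Pfkfb1 and Pfkfb4, paralogs of Pfkfb3, stood at 1.02 to 2.66 CPM over the libraries, and Pfkfb2 at 9.22, 8.37 and 7.24 CPM. Slc16a1 and Slc16a3, lactate carriers, stood at 0.52 to 1.12 CPM.

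Neighbouring pathways were read for the same libraries. Of 8 tested genes of pyruvate oxidation, which feeds pyruvate to the mitochondria, 0 were past the fold at 6 h, where 7.12% of all genes were higher and 6.74% lower (median -0.11, from -0.24 for Pdk2 to 0.01 for Mpc2), and Pdk2, an inhibitory kinase of pyruvate dehydrogenase, was the 1 gene lower at 30 h (-0.44), 0 being higher, where 20.4% of all genes were lower. In the pentose phosphate pathway, a side branch that makes NADPH and ribose, Rpia was higher at 6 h (0.37) and 30 h (0.65), while Pgd was lower at 30 h (19.0 against 34.6 CPM in the control, log2 ratio -0.86), the other 5 of 7 genes being within the fold at both times, against 7.12% higher and 6.74% lower of all genes at 6 h and 13.0% and 20.4% at 30 h. Of 8 genes of fatty acid oxidation 1 was lower at 6 h, Acaa2 (-0.38, list median -0.06), where 6.74% of all genes were. At 30 h 3 were lower, Cpt1a (-0.51), Cpt2 (-0.35) and Acadl (-0.78), where 20.4% of all genes were, and the list median was -0.01. None of the 8 was higher past the fold against control.

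Regulators of glycolysis were read as well. Txnip, which restrains glucose uptake, was at 729 CPM in the control, 407 CPM at 6 h and 774 CPM at 30 h, and was the 1 of 6 tested regulators past the fold at 6 h (log2 ratio -0.84), where 6.74% of all genes were lower. At 30 h against control 2 regulators were lower past the fold, Arnt, the partner of the hypoxia factors (-0.41), and Foxo1, which holds back EC growth and metabolism (-0.32), and 0 were higher, where 20.4% of all genes were lower. Hif1a, the hypoxia factor, was at 70.5, 83.2 and 60.7 CPM. Myc, a factor that raises glycolysis genes, was at 1.44, 10.3 and 1.17 CPM, under the 5 CPM filter in the mean of the libraries. Among 12 tested hypoxia genes outside glycolysis, 3 were higher at 6 h (Vegfa 0.94, P4ha1 0.78, Ndrg1 0.61) and 2 lower (Bnip3 -0.85, Ankrd37 -0.42), with a median of 0.02, where 7.12% of all genes were higher and 6.74% lower. At 30 h 3 were higher and 5 lower (median -0.23), where 13.0% and 20.4% of all genes were (median -0.07), from -1.14 for P4ha2 to 0.93 for Ddit4.

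Stress genes that respond to tissue digestion differed between the libraries too. At 6 h against control 9 of 9 heat shock genes were higher past the fold (median 1.06, summed level 1462 to 3046 CPM), from 0.66 for Dnajb1 to 2.69 for Hspa1b, both of the chaperone machinery, where 7.12% of all genes were higher and 6.74% lower. Of 14 immediate early genes 10 were higher and 0 lower against those same shares (median 0.44, 10653 to 14310 CPM), from 0.04 for Jun to 1.61 for Atf3, both stress-induced transcription factors. At 30 h against control 5 heat shock genes were higher and 2 lower (summed level 1795 CPM), from -0.73 for Hspa1b to 0.69 for Hsph1, and 1 immediate early gene, Nr4a1 (0.65), was higher and 9 lower (7883 CPM), down to -0.88 for Fosb. Of all genes 13.0% were higher and 20.4% lower in that comparison, with a median of -0.07. Gene models that pick up ribosomal RNA summed to 6001 CPM in the control, 7622 CPM at 6 h and 24406 CPM at 30 h. Red cell genes summed to 3249, 2119 and 829 CPM and epithelial genes to 764, 567 and 349 CPM in the same order. Leukocyte markers summed to 89.1, 121 and 74.3 CPM, highest at 6 h. The part of all these genes in the member ratios was not tested beyond the alternatives plotted next.

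**Figure D4:**
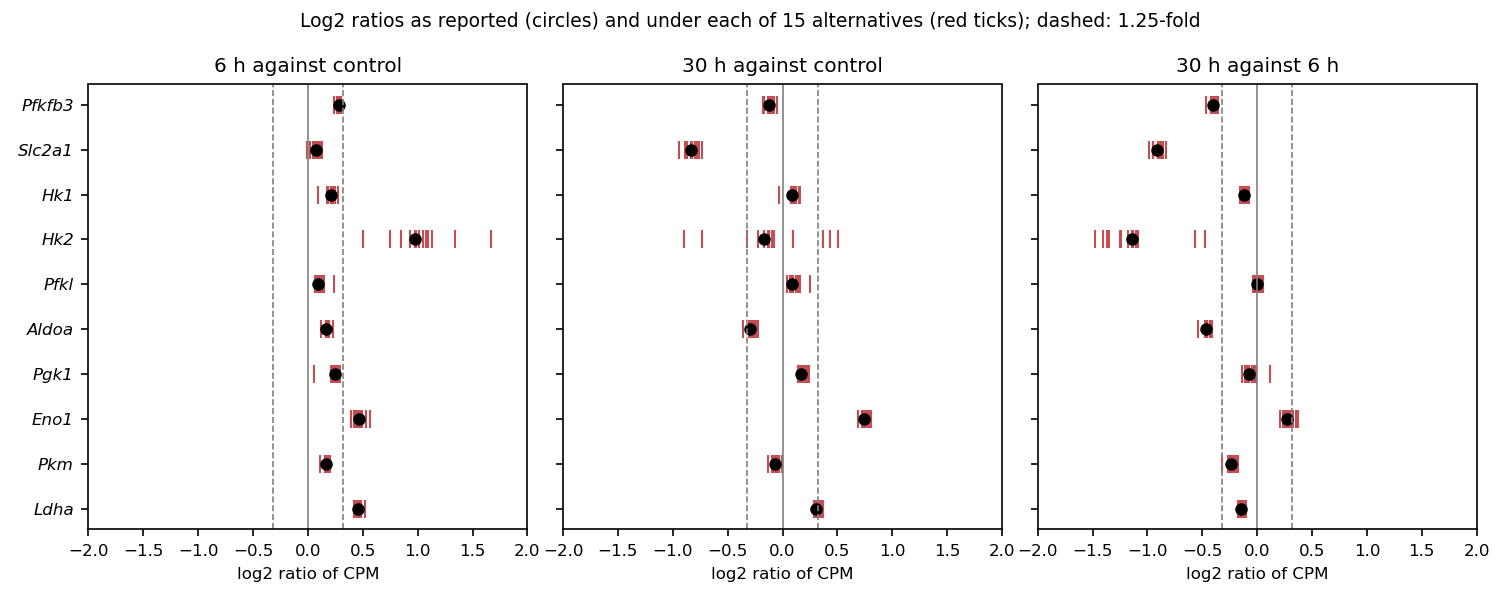
Log2 ratio of CPM (x axis) of each gene (y axis) as reported (circles) and under 15 other settings (red ticks), with dashed lines at the fold used for calls (0.32 on the log2 scale). Eno1 stays right of 0 in all panels, Slc2a1 stays between -0.94 and -0.73 at 30 h against control, and the ticks spread most for Hk2.

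Across those 15 settings, which change the scaling, barcode filters, classes, free RNA and depth, Pfkfb3 at 6 h against control stayed between 0.23 and 0.30, and at 30 h against 6 h between -0.46 and -0.35. Eno1 stayed between 0.39 and 0.57 at 6 h and 0.69 and 0.81 at 30 h, and Ldha between 0.42 and 0.52 at 6 h. Aldoa at 30 h against 6 h stayed between -0.54 and -0.41.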

How the data were processed

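Single-cell RNA of sorted mouse lung ECs was measured in 3 libraries. The deposited values are raw UMI counts per gene and barcode, which the authors made with Cell Ranger 7.2.0 per the file headers (an earlier release, with build mm10, stands in the methods of the study), unfiltered and not normalized, with 1792904 to 1911655 barcodes listed per library. Whether intronic reads were counted is not given in the sources used here. Barcodes and genes come in deposited name lists without values.

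From these counts, UMIs were summed over endothelial barcodes, empty droplets and classes, and scaled to CPM (per 1000000 UMIs). Library totals were 140601123, 132566934 and 124085451 UMIs for control, 6 h and 30 h. Sums carry exact Poisson intervals, shares exact Clopper-Pearson intervals and ratios exact conditional binomial intervals. Only the ratios and their intervals were run on simulated data. Those were Poisson counts, the model the intervals assume, so that run cannot speak to spread between barcodes or mice. Classes were scored as the mean z-score over their markers: at least 1.0, with at least 3 markers detected, and above the gCap score, for a class other than gCap, and for gCap at least 3 gCap markers and no other score of 0.5 or more. Doublets were kept, and leaving out those that Scrublet (scanpy 1.11.5) scored highest was an alternative. TMM factors came from edgeR 4.0.16. Other tools were Python 3.11.15, numpy 2.4.6 and scipy 1.17.1. Positions are from GENCODE M21, in which 32158 of 32285 gene IDs were found. All 10 members are named. Of each list the genes with the highest and lowest ratio against control, or those past the fold, are named, and Gapdh, Myc, the Pfkfb3 paralogs and the lactate carriers were singled out after their values were seen. The members and lists were chosen with earlier results of these data known.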

Additional observations from a re-analysis of the deposited data

Results flagged for a closer look

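Ldha at 30 h against control went in opposite directions between classes. Its log2 ratio was 0.35 in gCap-like, 0.49 in aCap-like and 0.46 in artery-like barcodes and -0.73 in LEC-like barcodes (-1.32 to -0.16). This was flagged because the classes moved apart, and the difference was not tested. The LEC-like values rest on 74 control and 57 barcodes at 30 h. In those sums epithelial markers stood at 2578 CPM in the control and 89.2 CPM at 30 h and leukocyte markers at 386 and 28.5 CPM. In artery-like sums fibroblast or pericyte markers stood at 345 CPM in the control and 89.0 CPM at 30 h. The part of such RNA in the Ldha ratios was not tested. The vein-like ratio was -0.10 (-0.23 to 0.02).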

How the results depend on the processing

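No paired analysis was possible because each group has 1 library. At a fold of 1.5, 0 members were past it at 6 h against control (all genes: 2.06% higher, 1.36% lower). Eno1, higher, and Slc2a1, lower, were past it at 30 h against control (4.85% higher, 5.01% lower). At 30 h against 6 h 1 member, lower, was past it (5.21% higher, 5.28% lower). At a fold of 1.1 there were 7, all higher, at 6 h against control (19.9% higher, 24.3% lower), 5 at 30 h against control, 3 higher and 2 lower (25.8% and 41.4%), and 6 at 30 h against 6 h, 1 higher and 5 lower (24.9% and 40.4%). In gCap-like barcodes alone 4 members were past the fold at 30 h against control and the median of the 10 members was -0.017, against 0.01 in all endothelial barcodes. Over 15 settings the median stayed between 0.17 and 0.26 at 6 h against control, between -0.02 and 0.11 at 30 h against control and between -0.22 and -0.14 at 30 h against 6 h. Of 450 single-gene ratios 406 stayed within their counting interval and 44 did not, and 0 ratios past the fold changed sign, while Hk1, Pgk1, Pfkl, Hk2 and Slc2a1 ratios within it or under the filter did in some settings. Of 12 class ratios 6 left their interval under the stricter gate. Without a filter on low values, 18.1% of genes were higher and 18.9% lower at 6 h against control, 23.9% and 26.5% at 30 h against control, and 24.6% and 25.0% at 30 h against 6 h. The subtraction of melanoma RNA, the removal of melanoma-like barcodes and a looser filter on other cell types were chosen after seeing the data. The filter planned used the epithelial list and dropped any barcode with 1 or more melanoma marker UMIs, and left 2831 to 4826 barcodes per library. The looser filter did not use the epithelial list, dropped only melanoma-like barcodes on the melanoma markers, and left 7230 to 9319. The parts of these 2 changes were not separated. Counts of UMIs limit Hk2 everywhere and LEC-like and artery-like values of all genes, and intervals say nothing of differences between mice.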
